A study of Drosophila melanogaster with 11 samples.

Results

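The genes described here are *spen*, its short relative *nito* and the genes of the RNA m6A methylation machinery, taken as the 7 rows of the gene table and the 52 exon bins of the exon table that carry the names *spen*, *nito*, *fl(2)d*, *vir*, *Ime4*, *CG7818* and *YT521-B*. They are 7 of 14595 genes and 52 of 75196 exon bins. An exon bin is an exon, or a piece of one where transcripts differ in their exon borders. All 7 genes were found in both tables. Their names, not their values, chose them.

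RNA was sequenced from diploid cells sorted from dissociated whole midguts of 5-day-old *Drosophila* females. RFP+ cells without GFP were taken as intestinal stem cells (ISCs), and RFP+ GFP+ cells as enteroblasts (EBs), the daughters in which Notch is active. Every group carried esg>GAL4, tubGAL80.ts, UAS-RFP and the Notch reporter nre-GFP, and was moved from 18 to 29°C for 2 days. The esg driver is active in both ISCs and EBs. The SPEN-ISC and SPEN-EB groups also carried UAS-*spen* RNAi, from 1 hairpin line, and WT-ISC and WT-EB were wild-type but for the shared transgenes. The tables hold 11 libraries, with 2 of WT-EB and 3 of each other group, since WT-EB replicate 2 was left out by the authors. The study asked what lowering *spen* changes in RNA levels and exon usage in the 2 cell types.

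N6-methyladenosine, or m6A, is a mark that a multi-protein writer complex sets on adenosines of nascent mRNA and that YTH domain proteins read. The catalytic pair is Ime4 (also called Mettl3) and the CG7818 product (Mettl14), and Fl(2)d, Virilizer and Spenito hold the complex on its target RNAs. YT521-B (Ythdc1) is the nuclear reader. In flies these proteins are best known for the female splicing of *Sex-lethal*. Spen and Spenito belong to a family with RNA recognition motifs and a C-terminal SPOC domain, and Spen, the large member, is best known as a partner of transcriptional corepressors.

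The libraries held 28206027 to 31991452 counts over all exon bins, but differed in how many genes they reached. At least 1 FPKM (fragments scaled to gene length and library depth) was reached by 5106 to 6838 genes in WT-ISC, 5858 to 6836 in SPEN-ISC, 4676 to 5021 in WT-EB and 5437 to 6441 in SPEN-EB. WT-ISC replicate 2, SPEN-ISC replicate 3 and SPEN-EB replicate 1 had the most genes of their groups, and WT-ISC replicate 1 and both WT-EB libraries the fewest. The summed FPKM of 3 stem cell markers was 5.71 to 107 in WT-ISC against 4.41 to 8.57 in WT-EB, and *esg* was detected in all 11 libraries. The 5 Notch target markers summed to 1162 to 1703 FPKM in WT-ISC and 1046 to 1075 in WT-EB, so these sums did not tell the sorted EBs from the ISCs. They were 3162 to 5099 in SPEN-ISC and 2211 to 2868 in SPEN-EB. All marker sums here are of FPKM as deposited, in which WT-ISC lay above WT-EB by a median of 0.66 on the log2 scale over all genes tested. Single markers were not compared after scaling of the libraries. The 7 enterocyte markers summed to 1826 to 3420 FPKM in WT-ISC, 2139 to 6152 in SPEN-ISC, 287 to 360 in WT-EB and 3181 to 3332 in SPEN-EB. Of 8 enteroendocrine markers, the 7 found summed to 1365 to 2497 in WT-ISC, 125 to 2925 in SPEN-ISC, 17.4 to 24.3 in WT-EB and 4.11 to 12.3 in SPEN-EB. The 6 visceral muscle markers summed to at most 7.77 FPKM in any library. No marker of these 5 lists was at 0 in every library of a group. Enterocyte markers thus moved with *spen* RNAi in EBs, and their part in the EB results was not tested. In sorted bulk samples, fewer cells of a type and less RNA per cell cannot be told apart.

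*spen* (FBgn0016977, 2L:159032-203250, plus strand, BDGP5), the target of the RNAi, was higher, not lower, in the knockdown libraries at the level of the gene. It was at 0.255, 0.620 and 0.327 FPKM in WT-ISC and at 2.17, 1.61 and 5.04 in SPEN-ISC, in the order of replicates 1 to 3. It was at 0.115 and 0.147 in WT-EB (replicates 1 and 3) and at 2.24, 0.920 and 0.936 in SPEN-EB. Each SPEN library was above every WT library of both cell types, and *spen* was the lowest of the 7 genes in each wild-type library. The study states that the hairpin targets exon bin E014 and that its own RNA gave reads there, so the level of the gene and of E014 does not check the knockdown.

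The catalytic pair was unequal in every library. *Ime4* (FBgn0039139, 3R:19857914-19859979, plus strand), the methyltransferase subunit, was at 1.75, 3.91 and 4.53 FPKM in WT-ISC and at 7.63, 2.65 and 6.33 in SPEN-ISC. It was at 2.31 and 1.82 in WT-EB and at 3.63, 2.90 and 7.01 in SPEN-EB. The ISC groups overlapped. Every SPEN-EB library was above both WT-EB libraries, beside 48.5% of all genes tested before scaling. After scaling, the EB groups overlapped too. *CG7818* (FBgn0032016, 2L:8308427-8309961, plus strand), its RNA-binding partner, was at 12.97, 14.91 and 15.93 FPKM in WT-ISC and at 22.75, 14.56 and 13.997 in SPEN-ISC. It was at 7.50 and 11.3 in WT-EB and at 8.60, 12.4 and 14.7 in SPEN-EB, and the RNAi and wild-type groups overlapped in both cell types. *CG7818* was above *Ime4* in 11 of 11 libraries, by 2.10 to 7.39 times per length.

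Of the subunits that hold the complex on RNA, *fl(2)d* (FBgn0000662, 2R:9707129-9712054, minus strand), the fly counterpart of WTAP, was at 1.13, 7.15 and 2.95 FPKM in WT-ISC and at 4.97, 2.54 and 8.46 in SPEN-ISC. It was at 1.32 and 1.35 in WT-EB and at 4.99, 1.61 and 4.74 in SPEN-EB. WT-ISC replicate 1 was the lowest of all 11 libraries, so WT-ISC alone spanned most of the range of this gene. *vir* (FBgn0003977, 2R:19247786-19253777, minus strand), which encodes a large scaffold of the complex, was at 0.437, 2.67 and 3.45 FPKM in WT-ISC and at 2.34, 1.19 and 3.57 in SPEN-ISC. It was at 0.704 and 0.675 in WT-EB and at 3.17, 2.25 and 2.70 in SPEN-EB. *vir* was therefore low in both WT-EB libraries and in WT-ISC replicate 1. The SPEN-EB libraries stood clear of WT-EB, beside 48.5% of all genes tested before scaling and 17.8% after it.

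*nito* (FBgn0027548, 2R:3849991-3857320, plus strand), the fly counterpart of RBM15 and RBM15B, was at 2.79, 7.38 and 2.53 FPKM in WT-ISC and at 2.21, 0.714 and 3.61 in SPEN-ISC. It was at 0.569 and 0.959 in WT-EB and at 1.95, 0.426 and 1.31 in SPEN-EB. It was the only one of the 7 genes with its highest group mean in WT-ISC (4.23 ± 2.73, SD, n = 3). Among the neighbours in the order of its means (WT-ISC, SPEN-ISC, SPEN-EB, WT-EB), each pair overlapped.

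The reader *YT521-B* (FBgn0027616, 3L:3370451-3374170, minus strand) was at 11.2, 15.1 and 11.8 FPKM in WT-ISC and at 21.3, 8.32 and 20.9 in SPEN-ISC. It was at 8.54 and 8.35 in WT-EB and at 10.96, 9.32 and 15.67 in SPEN-EB. *YT521-B* and *CG7818* were the most abundant of the 7 genes per length in all 11 libraries, and of the pair *CG7818* was the higher in 6. In the order of the group means of *YT521-B* (SPEN-ISC, WT-ISC, SPEN-EB, WT-EB), only SPEN-EB and WT-EB did not overlap. Before scaling, 48.5% of all genes tested were likewise higher in SPEN-EB without overlap, and after scaling these groups of *YT521-B* overlapped. For *fl(2)d* and *Ime4* the order was SPEN-ISC, SPEN-EB, WT-ISC, WT-EB, for *vir* it was SPEN-EB, SPEN-ISC, WT-ISC, WT-EB, and for *CG7818* it was that of *YT521-B*. Neighbours in these orders overlapped.

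**Figure D1:**
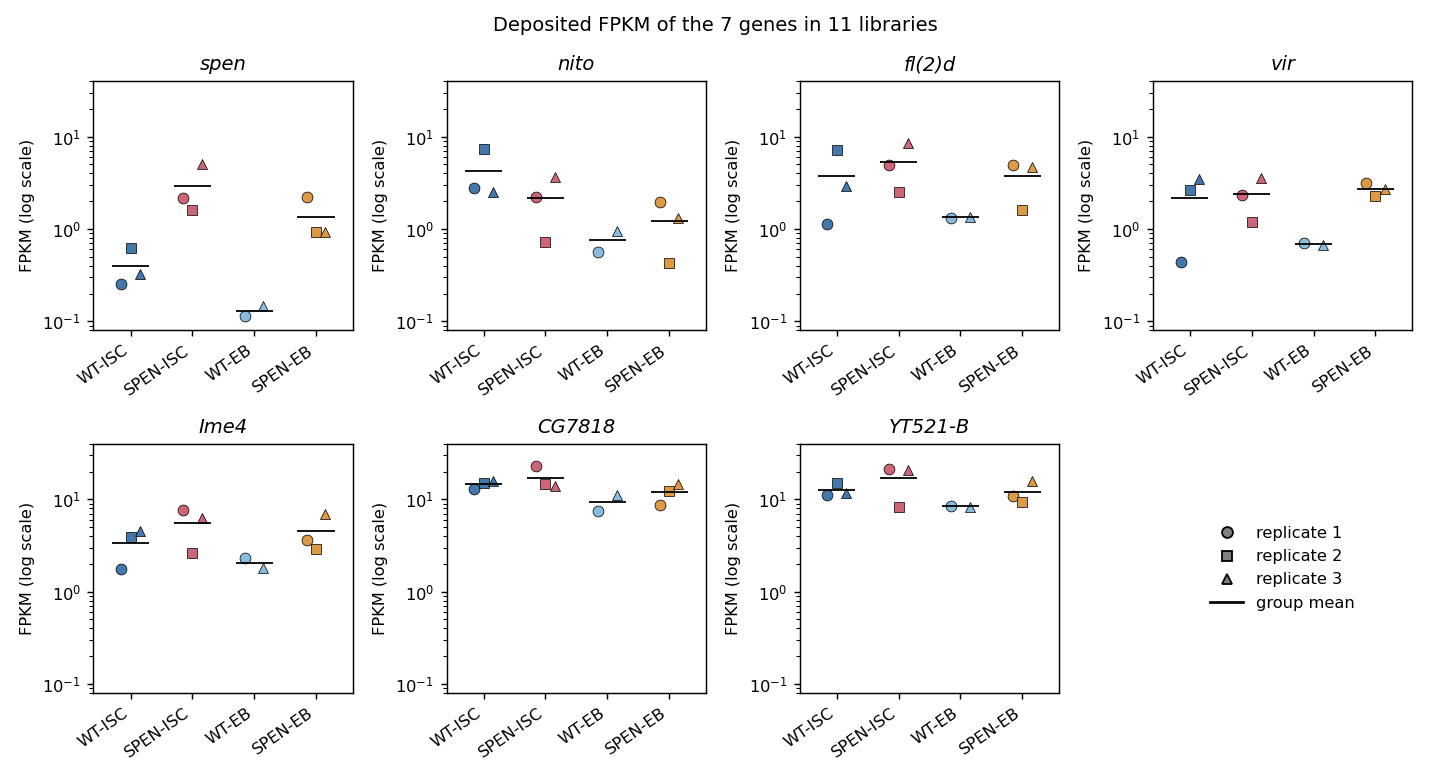
Level of the 7 genes in each of the 11 libraries (FPKM, log axis), by group, with each point a library and the bar the group mean. *CG7818* and *YT521-B* lie above the other 5 genes throughout, and *spen* is low in both wild-type groups and higher in both RNAi groups. In these FPKM as deposited, WT-EB holds the lowest mean of every gene. Over all genes tested, WT-ISC and SPEN-EB were each above WT-EB by a median of 0.66 on the log2 scale before scaling. After scaling, *CG7818*, *Ime4* and *YT521-B* were lower in WT-ISC than in WT-EB (-0.16, -0.19 and -0.25), and *fl(2)d*, *vir* and *nito* higher.

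In ISCs, no member passed the test of SPEN-ISC against WT-ISC, in which 7 of 6371 genes tested, or 0.11%, had a Benjamini-Hochberg adjusted p under 0.05 (limma on scaled log2(FPKM + 0.5), which understates the change of low genes). *spen* had the largest difference of the 7, at 1.59 on the log2 scale (SE 0.43, 95% interval 0.67 to 2.51, adjusted p = 0.406), and it entered the test only through its SPEN-ISC libraries. *nito* was lower in SPEN-ISC by a log2 difference of -1.05 (SE 0.47, interval -2.05 to -0.05), and did not pass (adjusted p = 0.999). The other members differed by -0.06 (*CG7818*), 0.04 (*YT521-B*), 0.07 (*vir*), 0.37 (*Ime4*) and 0.39 (*fl(2)d*), each with an SE of 0.37 to 0.49. The median over the 7 members was 0.07, beside 0.03 over all genes tested. On counts summed over bins, *spen* gave a log2 difference of 2.60 and passed in DESeq2 (adjusted p = 1.69e-05), the only member called by any alternative in this comparison.

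In EBs, no member passed either, although 405 of 5974 genes, or 6.78%, did. *spen* stayed below 1 FPKM in too many libraries to be tested. *vir* had the smallest p, with a log2 difference of 0.89 (SE 0.40, interval 0.06 to 1.73, adjusted p = 0.178), and it and *nito* entered the test, scaled or not, only through their SPEN-EB libraries. *fl(2)d* differed by 0.46 and *Ime4* by 0.20, whereas *nito*, *YT521-B* and *CG7818* differed by -0.18, -0.32 and -0.44. The median over the 6 members tested was 0.01, beside -0.04 over all genes.

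The scaling of the libraries changed the values of this comparison. In the FPKM as deposited, 4 of the 6 members tested (*fl(2)d*, *vir*, *Ime4* and *YT521-B*) were higher in every SPEN-EB library than in either WT-EB library, beside 48.5% of all genes tested. After scaling, 1 of the 6 (*vir*) did not overlap, beside 17.8% of all genes. None of the 6 was lower without overlap, beside 3.41% of all genes as deposited and 28.3% after scaling, and none was higher in both cell types alike, beside 4.49% and 1.96%. Left unscaled, the median of all genes moved up by 0.70, and so did the members: *vir* was at 1.42 (adjusted p = 0.0452), *fl(2)d* at 1.10, *Ime4* at 0.89, *YT521-B* at 0.45, *nito* at 0.36 and *CG7818* at 0.32. The last 3 changed sign with the scaling, and relative to the shift of all genes they remained below it. In ISCs the shift was 0.23, the only sign that changed was that of *CG7818* (0.19 unscaled), and *spen* was the 1 member of 7 higher without overlap in deposited and in scaled FPKM alike, beside 5.93% and 3.67% of all genes.

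Between the wild-type cell types, *nito* was the member with the smallest p. Its level in WT-ISC was higher than in WT-EB by 1.21 on the log2 scale (SE 0.46, interval 0.27 to 2.16), which did not pass (adjusted p = 0.21), with 188 of 6128 genes or 3.07% called. *nito* and *vir* entered this test only through their WT-ISC libraries, since neither WT-EB library reached 1 FPKM. Without WT-ISC replicate 1, and with the same limit, it was called, with a difference of 1.17 and an adjusted p of 0.0170, and that fit called 2069 genes. The other 5 members tested lay between -0.25 (*YT521-B*) and 0.33 (*vir*). Between SPEN-ISC and SPEN-EB the members lay between -0.49 (*vir*) and 0.57 (*spen*), none was called, and 43 of 6225 genes or 0.691% were. The difference of the RNAi effect between EBs and ISCs was largest for *nito* (0.87, SE 0.64) and *vir* (0.82, SE 0.62), each with adjusted p = 0.987. None of 7027 genes was called in this test by limma, 124 had an unadjusted p under 0.05 and DESeq2 called 1. An effect in 1 cell type only is therefore not shown for any of the 7 genes.

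With both cell types in 1 fit, an alternative chosen after the data were seen, *spen* passed and the other 6 members did not. *spen* was higher in SPEN libraries by 1.44 (SE 0.27, adjusted p = 0.0131), beside 145 of 7027 genes or 2.06% called, and it entered the fit only through SPEN libraries, since no WT library reached 1 FPKM. Without WT-EB replicate 1 or 3, its adjusted p was 0.0515 or 0.0526. *nito* was at -0.66 (SE 0.32, adjusted p = 0.312), and the other 5 members lay between -0.23 (*CG7818*) and 0.44 (*vir*).

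**Figure D2:**
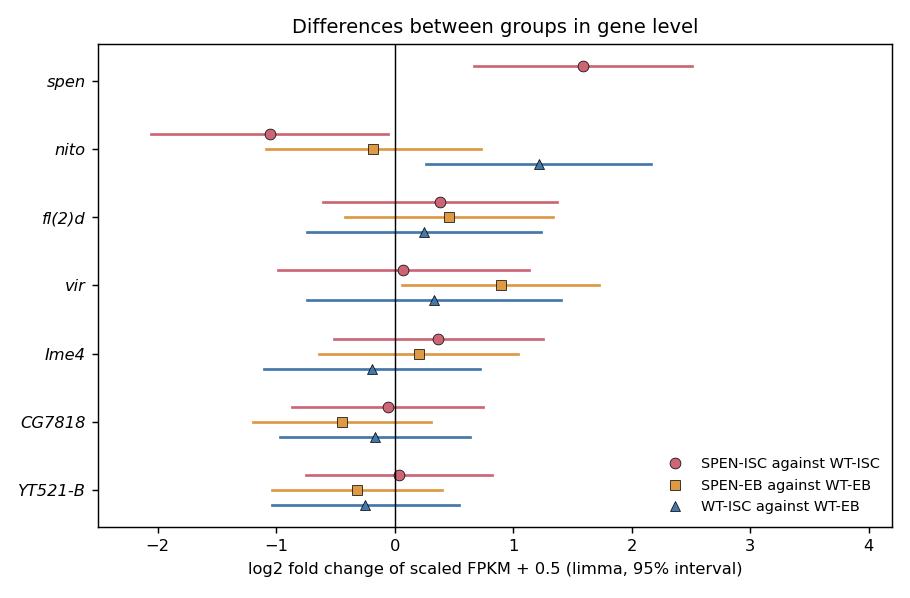
Log2 difference in scaled level for each gene between SPEN-ISC and WT-ISC, SPEN-EB and WT-EB, and WT-ISC and WT-EB, with bars for the 95% interval of the limma fit. *spen* lies at 1.59 in ISCs (not tested in the other comparisons), *nito* at -1.05 in ISCs, -0.18 in EBs and 1.21 between the wild-type cell types, and of the other intervals only that of *vir* in EBs leaves out 0.

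The 4 lists of related genes were read in the same fits, and no gene of them was called in any of the 5 comparisons. The other m6A genes were *CG7358* (Flacc, a link between Spenito and Fl(2)d), *Hakai* (a ubiquitin ligase found with the complex), *CG6422* (the cytoplasmic reader Ythdf) and *CG7544* (a separate methyltransferase, the counterpart of METTL16). All 4 were tested, with a median difference of 0.12 in ISCs and 0.02 in EBs, beside 0.03 and -0.04 over all genes tested. *CG6422* and *CG7544* entered the EB test only through their SPEN-EB libraries, since neither WT-EB library reached 1 FPKM. *Hakai* had the smallest p of this list in EBs. It was at 8.79 and 9.73 FPKM in WT-EB and at 6.05, 8.03 and 12.6 in SPEN-EB, which overlap, and its scaled log2 difference was -0.88 (SE 0.36, adjusted p = 0.142). In ISCs the smallest p was that of *CG7544*, with a difference of 0.51 (adjusted p = 0.999).

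Of *Sxl* and 5 further sex determination genes, 4 were tested in each cell type, with medians of 0.27 in ISCs and 0.01 in EBs. *Sxl*, the switch gene of female development and the best known m6A target in the fly, was at 0.581, 2.67 and 1.44 FPKM in WT-ISC, 0.822, 1.79 and 5.56 in SPEN-ISC, 0.211 and 1.11 in WT-EB, and 3.72, 0.626 and 0.780 in SPEN-EB. The groups overlapped in both cell types, and the scaled difference in EBs was 0.35 (adjusted p = 0.727). *tra*, the splicing factor acting next in that pathway, had the smallest p in ISCs, with 0.30 (adjusted p = 0.999). Of 7 genes known as corepressor partners of Spen or Notch, 4 were tested, with medians of 0.39 in ISCs and 0.66 in EBs. Over all genes tested the medians were 0.03 and -0.04, and *gro* entered the EB test only through its SPEN-EB libraries. *Rpd3*, a histone deacetylase, was at 1.74 and 1.62 FPKM in WT-EB and at 7.39, 3.26 and 8.75 in SPEN-EB, and its scaled difference of 0.91 (SE 0.40, adjusted p = 0.163) did not pass. In ISCs *gro*, the corepressor Groucho, was at 0.44 (adjusted p = 0.999). *pps*, another gene with a SPOC domain, was not tested in ISCs and was at 0.78 in EBs (adjusted p = 0.276). It too entered the EB test only through its SPEN-EB libraries.

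The exon bins place the *spen* reads. The gene has 21 bins and 8 transcripts. The annotation gives 2 starts: bins E001 to E004, at 2L:159032-163001, hold 5' untranslated region (UTR) and first coding bases of 5 transcripts, and the other 3 start in E007 or E008, at 2L:182820-183419. E009 to E020 code for the protein, E014 alone being longer than all other coding bins together, and E021 is a 3'UTR bin of 4 transcripts. E007 and E008 had 0 counts in all 11 libraries, which allows up to 3 counts in any of them, so no use of the downstream start was detectable. E001, at the upstream start, had 10, 17 and 11 counts in WT-ISC, 26, 42 and 101 in SPEN-ISC, 1 and 11 in WT-EB, and 70, 15 and 24 in SPEN-EB.

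E014 carried the difference in the level of the gene. It held 6, 101 and 39 counts in WT-ISC and 1088, 613 and 2160 in SPEN-ISC, and 7 and 12 in WT-EB against 720, 393 and 406 in SPEN-EB. Its share of all *spen* counts was 4.44, 31.3 and 23.4% in WT-ISC and 88.4, 73.7 and 80.9% in SPEN-ISC, and 11.5 and 15.4% in WT-EB and 61.3, 81.9 and 78.2% in SPEN-EB. Per base, E014 had 0.203 to 0.229 times the counts of E020 in WT-ISC and 0.229 to 0.267 times in WT-EB, but 2.01 to 5.94 times in SPEN-ISC and 0.948 to 5.00 times in SPEN-EB. The wild-type and RNAi libraries did not overlap in any of these measures. E020 itself held only 1, 19 and 7 counts in WT-ISC and 7, 11 and 41 in SPEN-ISC. In EBs it held 1 and 2 in WT-EB and 29, 3 and 4 in SPEN-EB, so the ratios to it are loose. In wild-type libraries E014 was covered thinly next to E020, on these few counts, but not next to E009 to E011, upstream. Mean CPM (counts relative to library total) per kilobase in WT-ISC was 0.139 for E014 and 0.088, 0.083 and 0.138 for E009 to E011. In WT-EB it was 0.025 for E014 and 0, 0 and 0.024 for E009 to E011. The short bins E012 and E013 were at 0 and 0.215 in WT-ISC and at 0 in WT-EB. The log2 ratio of E014 to the rest of the gene was higher by 3.66 in SPEN-ISC (SE 0.66, interval 1.95 to 5.36, adjusted p = 0.747) and by 3.90 in SPEN-EB (SE 1.16, interval 0.99 to 6.82, adjusted p = 0.767), where 7 of 28911 bins (0.0242%) and 19 of 26322 (0.0722%) were called. On counts, edgeR gave 4.55 in ISCs (SE 0.74, adjusted p = 0.102) and 5.09 in EBs (SE 0.56, adjusted p = 0.0078). The usage ratio thus did not pass in either cell type, and the counts of E014 passed in EBs. The count of all bins called changed with the library left out, as given at the end. Without SPEN-EB replicate 1 the usage ratio in EBs was 4.58, with an adjusted p of 7.88e-10. That was the lowest adjusted p of the 5 fits that each left out 1 library, which gave 3.66 to 4.58.

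Outside E014, no lowering of *spen* RNA was measured in the RNAi libraries. The other 20 bins summed to 129, 222 and 128 counts in WT-ISC and to 143, 219 and 509 in SPEN-ISC. In EBs they summed to 54 and 66 in WT-EB and to 454, 87 and 113 in SPEN-EB. The ISC groups overlapped, every SPEN-EB library was above WT-EB, and SPEN-ISC replicate 3 and SPEN-EB replicate 1, which also had the most genes of their groups, stood highest. In FPKM before scaling, 48.5% of all genes tested were likewise higher in SPEN-EB without overlap. The log2 difference on these counts in edgeR was 0.58 in ISCs (SE 0.53, adjusted p = 1.00) and 1.18 in EBs (SE 0.73, adjusted p = 0.359), with 0 of 8152 genes called in ISCs (277 with an unadjusted p under 0.05, 54 called by DESeq2) and 73 of 7854 or 0.929% in EBs. Leaving out 1 library moved the difference from 0.21 to 0.95 in ISCs and from 0.08 to 1.57 in EBs, and the value of 0.08 came without SPEN-EB replicate 1. A reduction of the transcript is thus not shown by these bins, and the counts are too low to bound it closely. Whether reads of the construct reached other bins was not tested.

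In ISCs the bins around E014 overlapped between RNAi and wild-type libraries, and in EBs their wild-type counts were too low to compare with E014. E009 to E013, just upstream, summed to 3, 18 and 6 counts in WT-ISC, 6, 5 and 37 in SPEN-ISC, 1 and 0 in WT-EB and 50, 6 and 4 in SPEN-EB. E015 to E020, just downstream, summed to 3, 46 and 10, to 14, 20 and 101, to 1 and 6, and to 91, 6 and 6 in the same groups. SPEN and WT libraries overlapped in ISCs on both sides, while in EBs all SPEN libraries were above WT-EB upstream and met them at 6 counts downstream. In FPKM before scaling, 48.5% of all genes tested were above WT-EB in the same way. Only SPEN-ISC replicate 3 and SPEN-EB replicate 1 were far above the others.

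The other *spen* bins that did not overlap were in the 5'UTR and 3'UTR. E003, at 2L:160009-162591, belongs to 1 transcript (FBtr0330652) and extends E004 upstream. It had 86, 54 and 51 counts in WT-ISC, 52, 57 and 84 in SPEN-ISC, 35 and 13 in WT-EB and 98, 31 and 24 in SPEN-EB. Per base it had 0.969 to 2.62 times the counts of E001 in WT-ISC and 0.254 to 0.610 times in SPEN-ISC, without overlap, and 0.361 to 10.7 times in WT-EB and 0.305 to 0.630 times in SPEN-EB, which overlap. Against the gene without E014, its usage was lower by -1.16 in SPEN-ISC and -1.20 in SPEN-EB (adjusted p = 1.00 and adjusted p = 0.926), and that of E001 was higher by 1.43 in SPEN-ISC (adjusted p = 0.345) and 0.39 in SPEN-EB (adjusted p = 0.975). With E014 in the total, E003 was at -3.40 in ISCs and -2.97 in EBs and the 3'UTR bin E021 at -1.98 and -2.38, but the rest of the gene then holds the counts of E014. The same holds for E004 and E017, the members' only calls with both cell types in 1 fit (-2.48, adjusted p = 0.0022, and -2.62, adjusted p = 0.0309), beside 78 of 33989 bins or 0.229%.

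**Figure D3:**
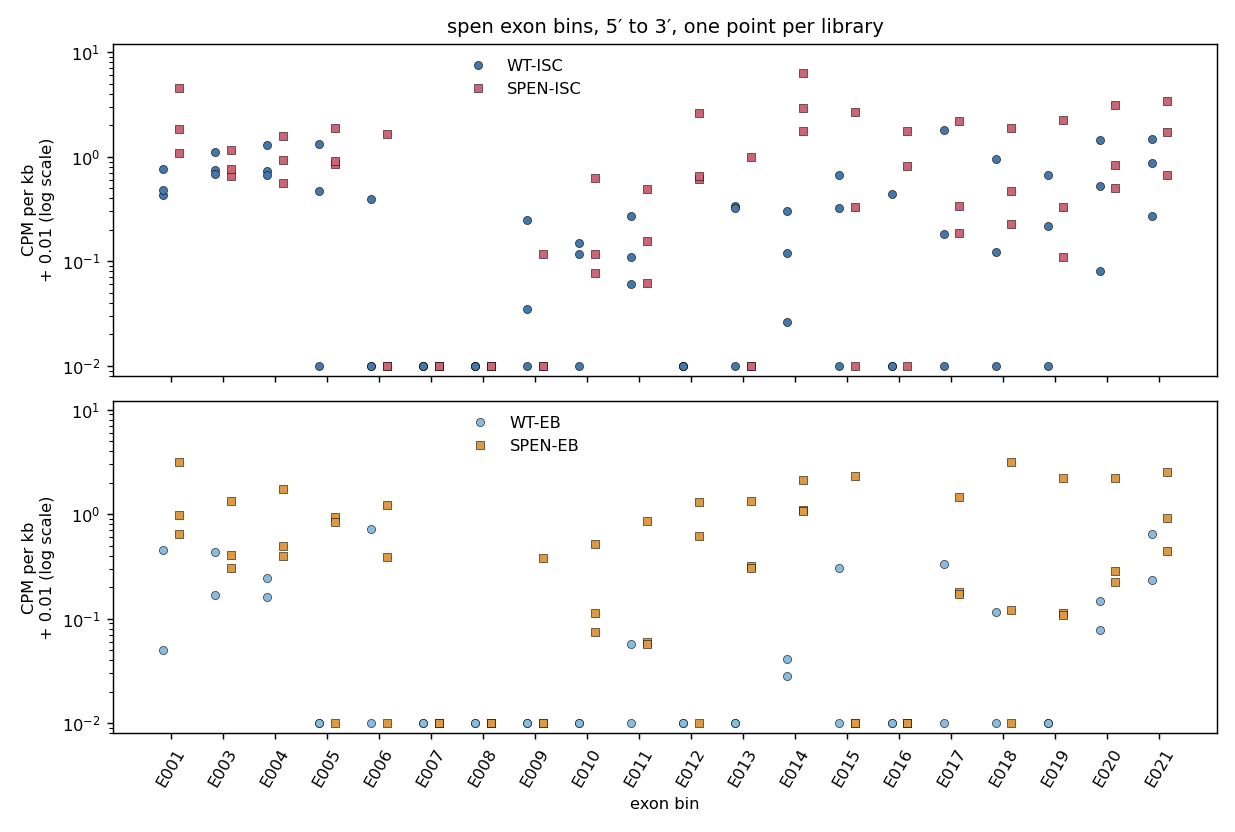
CPM (counts relative to the total of the library) per kilobase of bin, with 0.01 added, on a log axis for the *spen* bins in transcript order, by group, with points for libraries and the 4-base E002 left out. E014 stands at 3.66 ± 2.38 (SD, n = 3) in SPEN-ISC and 1.41 ± 0.595 (SD, n = 3) in SPEN-EB, against 0.139 ± 0.140 in WT-ISC and 0.0248 ± 0.0096 in WT-EB, and the downstream start, E007 and E008, is empty.

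*nito* has 6 bins and 2 transcripts that differ in their 3'UTR. E001 is 5'UTR, E002 holds 5'UTR and coding bases, and E003, of 1875 bases, holds the rest of the coding sequence and the start of the 3'UTR. E004, at 2R:3852832-3854196 (1365 bases), continues the 3'UTR directly in FBtr0088857 only. E005 and E006, at 2R:3856756-3857013 and 2R:3857095-3857320, are spliced 3'UTR exons of FBtr0088858 only. E004 was named by the study from these libraries, so its values here are not independent evidence of its direction.

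E004 had fewer counts in SPEN-ISC than in any WT-ISC library. It held 254, 476 and 170 counts in WT-ISC and 89, 35 and 133 in SPEN-ISC, and 35 and 58 in WT-EB against 72, 16 and 56 in SPEN-EB. The other 5 bins summed to 31, 307 and 119 in WT-ISC, 180, 56 and 303 in SPEN-ISC, 33 and 55 in WT-EB and 162, 32 and 105 in SPEN-EB, and overlapped in both cell types. On counts, edgeR gave a log2 difference of -2.17 for E004 in ISCs (SE 0.54, adjusted p = 0.498) and 0.02 for the rest of *nito* (SE 0.69). DESeq2 gave -2.21 for E004, with an adjusted p of 0.0085, and it called more of all genes in ISCs than edgeR, which called 0 of 8152. Leaving out 1 library in edgeR moved the difference of E004 from -2.48 to -1.94. In EBs the same pair of values was -0.67 (SE 0.65, adjusted p = 0.541) and 0.47 (SE 0.66). The counts of *nito* in SPEN-ISC were thus lower in E004, and the other bins showed no such difference.

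As a share of all *nito* counts, E004 was lower in the RNAi libraries of both cell types. It was 89.1, 60.8 and 58.8% in WT-ISC, 33.1, 38.5 and 30.5% in SPEN-ISC, 51.5 and 51.3% in WT-EB, and 30.8, 33.3 and 34.8% in SPEN-EB. The group means were 69.6 ± 17.0 (SD, n = 3), 34.0 ± 4.06 (n = 3), 51.4 ± 0.101 (n = 2) and 33.0 ± 2.03% (n = 3). The 95% Wilson intervals of single libraries, which cover counting error only, lay within 53.1 to 92.2% in WT-ISC and 26.4 to 48.7% in SPEN-ISC, and within 39.8 to 62.9% in WT-EB and 21.7 to 47.5% in SPEN-EB. All 6 SPEN libraries were below all 5 WT libraries, WT-ISC replicate 1 was far above the rest of its group, and both SPEN groups lay at nearly the same level. The 2 WT-EB libraries differed by less than their counting error.

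Per base, the same pattern held against the neighbouring bin alone. E004 had 23.3, 3.39 and 3.49 times the counts of E003 in WT-ISC, 1.14, 1.78 and 1.07 times in SPEN-ISC, 2.09 and 2.49 times in WT-EB and 1.03, 1.29 and 1.26 times in SPEN-EB. E004 lies in 1 of the 2 transcripts and E003 in both. The SPEN libraries were between 1.03 and 1.78, and each WT library was above every SPEN library. The distal exons E005 and E006 together had 7, 37 and 19 counts in WT-ISC, 15, 22 and 44 in SPEN-ISC, 4 and 5 in WT-EB and 26, 5 and 12 in SPEN-EB. Per base they had 0.743 to 1.81 times the counts of E003 in WT-ISC, 0.543 to 3.16 times in SPEN-ISC, 0.605 to 0.674 times in WT-EB and 0.762 to 1.14 times in SPEN-EB. The ISC groups overlapped, and the SPEN-EB libraries were above WT-EB on few counts. *CG8726*, on the opposite strand, shares 452 bases with E005 and E006 and held 19 to 322 counts per library. The study states a first-strand mode for its counts. *CG14763*, on the opposite strand with its 3' end 86 bases past E004, had 0 to 7 counts per library. The newer BDGP6 annotation draws an exon of *CG14763* within E004.

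The usage test of E004 did not pass in either cell type. In ISCs the log2 ratio of E004 to the rest of *nito* was lower by -1.98 (SE 0.56, interval -3.35 to -0.60, adjusted p = 1.00), and in EBs by -1.12 (SE 0.29, interval -1.77 to -0.47, adjusted p = 0.425). Without WT-ISC replicate 1, whose E004 share was the highest, the ISC value was -1.64 and passed with an adjusted p of 0.0248. That was the lowest adjusted p of the 6 fits that each left out 1 library, which gave -2.36 to -1.64 and adjusted p up to 0.99998. These fits called 3 to 12 of all bins tested. With both cell types in 1 fit the value was -1.75 (SE 0.38, adjusted p = 0.161), beside 78 of 33989 bins or 0.229% called. Without WT-ISC replicate 1 it was -1.49, with an adjusted p of 1.5e-04. This too was the lowest adjusted p, here of 11 such fits, which gave -1.91 to -1.49. The difference of the RNAi effect on E004 between EBs and ISCs was 0.86 (SE 0.85, adjusted p = 1.00), so the 2 cell types were not shown to differ. None of 33989 bins was called in that test by limma, 818 had an unadjusted p under 0.05 and edgeR's diffSpliceDGE called 1. The remaining *nito* bins were higher in share by 1.02 (E001), 1.24 (E002), 1.18 (E003) and 1.47 (E005) in ISCs and by 0.60, 0.31 and 0.54 (E001 to E003) in EBs, none of them called.

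The balance of counts along transcripts also varied between libraries. The ratio of counts in last to first bins, over 2200 well covered genes, was 0.559, 0.559 and 0.575 in WT-ISC, 0.599, 0.622 and 0.529 in SPEN-ISC, 0.519 and 0.546 in WT-EB and 0.516, 0.574 and 0.732 in SPEN-EB. It overlapped between RNAi and wild-type libraries in both cell types. With this ratio as a covariate, the usage difference of E004 was -1.98 in ISCs and -1.20 in EBs.

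**Figure D4:**
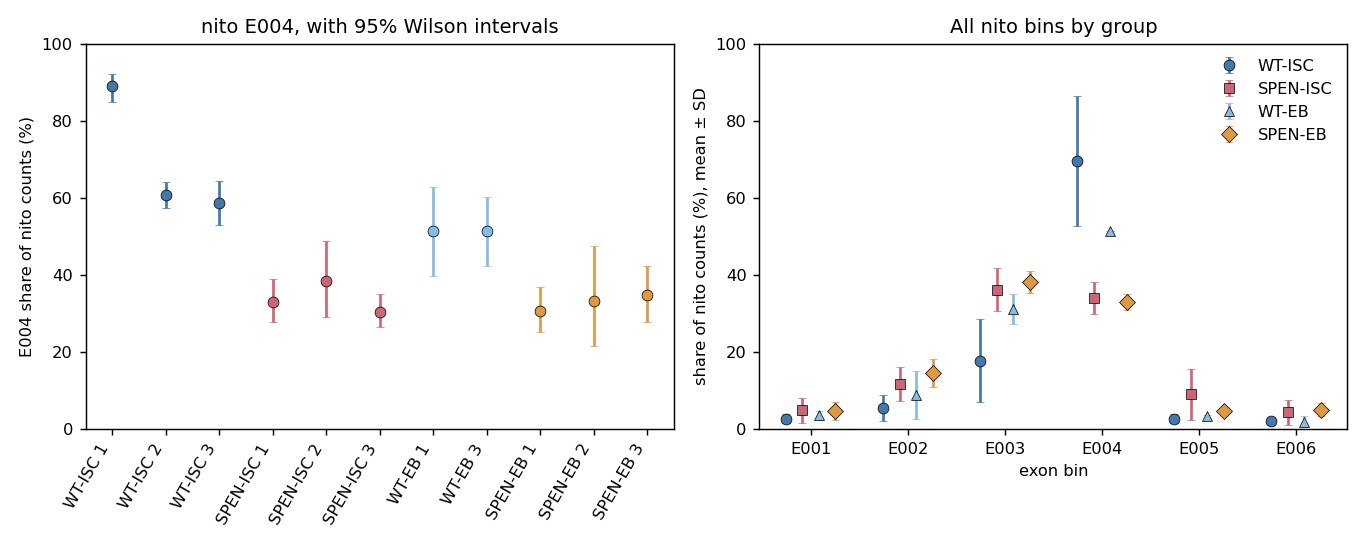
Share of *nito* counts (%) in E004 by library, with 95% Wilson intervals (left), and in each of the 6 bins by group, as mean ± SD (right). The share of E004 is 58.8 to 89.1% in WT-ISC and 51.3 to 51.5% in WT-EB, and 30.5 to 38.5% in the 6 SPEN libraries, while that of E003 is higher in SPEN.

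Of all member bins, few differed without overlap in both cell types. In ISCs, 34 of the 52 bins had enough counts, and 5 were higher in share without overlap (*Ime4* E002, *nito* E003 and E005, *spen* E014 and *vir* E003) and 4 lower (*nito* E004, *spen* E001, E003 and E004), beside 4.63% and 4.28% of all bins tested. In EBs, 3 of 31 were higher (*fl(2)d* E003, *nito* E003 and *spen* E014) and 6 lower (*YT521-B* E004 and E005, *nito* E004, *spen* E003 and E021 and *vir* E001), beside 12.7% and 11.9% of all bins. *fl(2)d* E003 had 4 and 1 counts in WT-EB against 34, 7 and 21 in SPEN-EB, so it met the count minimum only through SPEN-EB. In both cell types alike, *nito* E003 and *spen* E014 were higher, beside 1.26% of 25550 bins, and *nito* E004 and *spen* E003 lower, beside 1.06%. Bins of 1 gene share its total, so a lower share of 1 bin raises those of the others, and a higher share lowers them. In the RNAi libraries the *spen* total holds the counts of E014. The counts of *spen* E001, lower in share in ISCs, were higher in every SPEN-ISC library than in WT-ISC. The bins listed are thus not separate changes.

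The bins of the other 5 genes were described for the isoforms they tell apart. *fl(2)d* has 8 bins and 4 transcripts, of which FBtr0087647 alone uses E006, with the start of a longer coding sequence, and the other 3 use the 5'UTR bin E004. E006 had 11, 76 and 22 counts in WT-ISC, 38, 20 and 102 in SPEN-ISC, 14 and 6 in WT-EB and 69, 16 and 47 in SPEN-EB. E004 had 1, 18 and 4, then 6, 3 and 20, then 0 and 2, and then 8, 1 and 5 in the same libraries. Per base, E006 was covered 2.20 to 11.7 times as highly as E004 in the 10 libraries in which E004 had counts, so the transcript with E006 was the better covered in wild-type and RNAi cells alike. The smallest p of a *fl(2)d* bin was that of E003 in ISCs (-0.52, adjusted p = 1.00) and of E001 in EBs (-0.58, adjusted p = 0.904). Between WT-ISC and WT-EB it was that of E001 (-0.68, adjusted p = 0.95), in a comparison where no member bin was called, beside 0.0364% of all bins.

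*YT521-B* has 5 bins and 2 transcripts. FBtr0073078 alone holds E001, an extension of the 3'UTR of 836 bases, and E004, with the start of its coding sequence. E001 had 61, 183 and 102 counts in WT-ISC, 119, 63 and 242 in SPEN-ISC, 52 and 54 in WT-EB and 135, 54 and 136 in SPEN-EB, and per base 0.258 to 0.694 times the counts of E002 over all libraries. E004 had 63, 105 and 90 counts in WT-ISC, 153, 57 and 140 in SPEN-ISC, 79 and 69 in WT-EB and 76, 54 and 101 in SPEN-EB, or 1.37 to 2.17 times the counts of E003 per base. Both ends specific to FBtr0073078 were thus covered in every library. The share of E004 was 9.85 and 9.31% in WT-EB and 8.04, 6.90 and 7.04% in SPEN-EB, without overlap. Its usage difference of -0.43 (adjusted p = 0.890) was the smallest p of this gene in EBs. In ISCs the smallest p was that of E005 (0.18, adjusted p = 1.00), and the difference between cell types for E005 was -0.67 (adjusted p = 1.00).

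*vir*, *Ime4* and *CG7818* have 1 transcript each, so their bins tell no isoforms apart. In ISCs the smallest p was that of E003 for *vir* (0.25), of E002 for *Ime4* (0.44) and of E003 for *CG7818* (0.14), each with adjusted p = 1.00. In EBs it was that of E001 for *vir* (-0.88, adjusted p = 0.904), of E001 for *Ime4* (0.42, adjusted p = 0.961) and of E001 for *CG7818* (-0.20, adjusted p = 0.963). The *vir* bin E001, at the 3' end of that gene, took 11.9 and 16.7% of its counts in WT-EB and 6.26, 6.47 and 11.6% in SPEN-EB, where the groups nearly met. None of these bins was called, nor was any member bin between SPEN-ISC and SPEN-EB, beside 0.00355% of all bins.

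**Figure D5:**
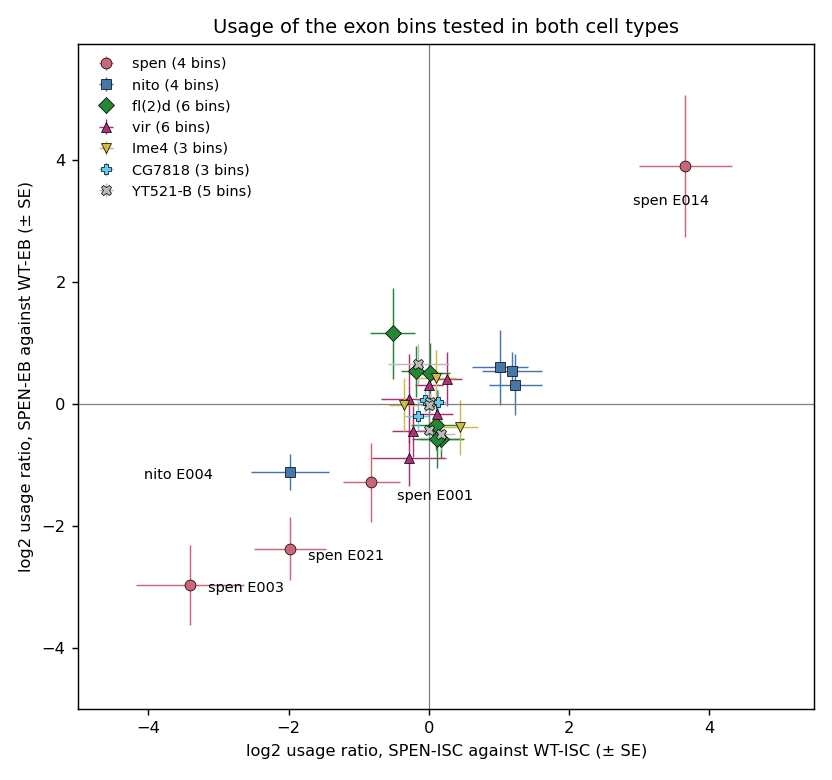
Log2 usage difference between SPEN and WT libraries in EBs (vertical axis) against that in ISCs (horizontal axis) for each member bin tested in both cell types, with bars for the SE. *spen* E014 lies far from the other bins at 3.66 and 3.90, *nito* E004 at -1.98 and -1.12, and the bins of the other 5 genes lie around 0, with *fl(2)d* E003 farthest at -0.52 and 1.16. That bin had 4 and 1 counts in WT-EB and met the count minimum in EBs only through SPEN-EB.

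Over the 11 libraries, the 3 genes whose gene-centred scaled log2 levels were most like those of *spen* were *E(spl)malpha-BFM*, a Notch target, *uzip* and *path*, with root mean square differences of 0.31, 0.32 and 0.33, where *spen* itself varied by 0.79. For *nito* they were *CG33090*, *TyrR* and *Nep3*, with 0.36, 0.39 and 0.40, where *nito* varied by 0.70. E014 held 61.3 to 88.4% of the *spen* counts in the SPEN libraries, so the level of *spen* there was largely that of this bin. These differences are the smallest of 7026 genes compared, and nothing about shared function or control follows from them.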

How the data were processed

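The authors aligned paired reads with TopHat2 2.0.6, keeping 1 site per read, and deposited FPKM per gene and read counts per exon bin. Bin positions in bases (BDGP5) came from another deposited table of the authors. The labels name a ribosomal RNA removal kit and the study oligo-dT capture, and which applied is not resolved. Tables of the authors' DESeq2 1.12.2 and DEXSeq comparisons hold fold changes and p-values, which were not used, nor were 16 per-sample columns.

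FPKM were scaled by TMM (a trimmed mean of M values) and tested as log2(FPKM + 0.5) in limma 3.58.1 (statmod 1.5.0, R 4.3.3, trend and robust options) where at least n libraries reached 1 FPKM, n being the size of the smaller group. The design had foreseen either unit. Usage of a bin was the log2 of its counts over the other counts of the gene, each plus 0.5, and was tested in limma with weights from the counts. Bins had to reach 10 counts (scaled to the median depth) in n libraries and 15 over all. Summed bin counts, with *spen* E014 and *nito* E004 set apart, were tested in edgeR 4.0.16 (quasi-likelihood). All tests were two-sided, with Benjamini-Hochberg adjustment over all features and a threshold of 0.05. Alternatives were edgeR and DESeq2 1.42.0 on gene counts, limma's diffSplice, edgeR's diffSpliceDGE, other filters and scaling, a replicate block, the last-to-first ratio as covariate and leaving out each library. DEXSeq was not run. Scripts were checked on simulated data.

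Coding and UTR parts of bins were read from the BDGP6 annotation by matching exon borders. The 7 genes were named, with the gene of smallest p in each list, *spen* E014 and its neighbours, each *nito* bin, and the bin of smallest p of the other genes. Further bins were named after their values were seen. The genes and lists were chosen with earlier results of these data known. P-values measure the spread between the replicates, which the labels call biological.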

Additional observations from a re-analysis of the deposited data

How the results depend on the processing

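Of the 3669 values that alternatives gave for single members and bins, 3637 kept their side of the threshold. Another 20, in 14 results, passed where the reported value had not, and 12, in 3 results, no longer passed. Nearly all reported values were not called, so keeping their side mostly meant staying uncalled and does not show that the few calls were stable. The sign differed in 341, over 127 of 254 results, each time between values that were not called. The cause of these changes was not tested, and the counts of calls are among all features tested unless members are named.

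In ISCs, the 7 genes called became 0 with edgeR on counts, 54 with DESeq2, 0 with no filter, 2 with no scaling, 19 with all libraries in the fit and 36 with the last-to-first ratio as a covariate, and 1 to 38 with a replicate left out. The 7 bins became 2 with diffSplice, 2 with diffSpliceDGE, 11 at a count minimum of 5, 20 with none, 19 with the covariate and 3 to 12 with a replicate left out. DESeq2 called 1 member gene (*spen*). Either no count minimum or the covariate called 1 member bin (*spen* E004, adjusted p = 0.0483 and 0.0425), and leaving out a replicate 0 to 1.

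In EBs, the 405 genes became 73 with edgeR, 54 with no filter, 967 with no scaling, 53 with all libraries, 796 with the covariate and 123 to 655 with a replicate left out. The 19 bins became 1 with diffSplice, 3 with diffSpliceDGE, 30 with no count minimum, 157 with the covariate and 4 to 212 with a replicate left out. Of the members, edgeR and DESeq2 each called 1 gene (*spen*), no scaling 1 (*vir*), and leaving out a replicate 0 to 2 bins (*spen* E014 and E021, without SPEN-EB replicate 1).

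Between WT-ISC and WT-EB, the 188 genes became 112 with edgeR, 401 with DESeq2, 21 with no filter, 97 with no scaling, 121 with all libraries, 62 with the covariate and 90 to 2069 with a replicate left out (0 to 1 member). The 10 bins became 3 with diffSplice, 0 with diffSpliceDGE, 2 with the covariate and 4 to 316 with a replicate left out. Between SPEN-ISC and SPEN-EB, the 43 genes became 20, 189, 2, 71, 76 and 69 under the same 6 settings and 16 to 69 with a replicate left out, and the 1 bin became 0 with diffSplice, 2 at a minimum of 5, 3 with none, 8 with the covariate and 0 to 5. For the difference between cell types, the 0 genes became 1 with DESeq2 and 1 with no filter, and the 0 bins 1 with diffSpliceDGE and 0 to 1 with a replicate left out.

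With both cell types in 1 fit, the 145 genes became 57 with the covariate, 87 with edgeR and 33 to 579 with a replicate left out (0 to 1 member), and the 78 bins became 10 with diffSpliceDGE and 37 to 114. The 2 member bins became 1 to 4 with a replicate left out, and diffSpliceDGE called 2, *spen* E003 and E014, in place of E004 and E017.

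The replicate numbers showed no consistent pairing: same-numbered libraries of different groups had correlations of their deviations of -0.634 to 0.628. With so few libraries per group, these values cannot exclude a pairing. The study sorted ISCs and EBs at the same time, so libraries of the 2 cell types may share a sort. Fits across cell types without the block treated them as independent. With the replicate block, the genes called were 15 in ISCs, 835 in EBs and 67 over both cell types, and the bins 424 in EBs, 65 between WT-ISC and WT-EB and 0 between SPEN-ISC and SPEN-EB. It called 3 member bins in EBs (*spen* E003, E014 and E021) and 1 over both cell types.

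Low counts limited the *spen* bins next to E014: E009 to E013 summed to 0 to 18 counts in the wild-type libraries. The lone WT-EB library left in 2 of the settings is assumed to vary like the other group.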
